A study of Canis lupus familiaris with 12 samples.

Results

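The genes described here encode the nuclear subunits of the mitochondrial respiratory chain and of ATP synthase. They were chosen by gene symbol among rows not on the mitochondrial chromosome: NDUF symbols for complex I, SDH for complex II, UQCR for complex III, COX symbols of the nuclear subunit families for complex IV and ATP5 for ATP synthase. Of the 29822 genes in each deposited table, 58 met this rule: 29 of complex I, 3 of complex II, 6 of complex III, 9 of complex IV and 11 of ATP synthase. Subunits whose gene carries no such symbol in the tables, among them SDHD, were not analysed here. Of the 58 genes, 53 had enough reads to be tested. The other 5 were NDUFA4L2, COX4I2, COX6A2, COX7B2 and ATP5MD, with between 0 and 15 exon reads each over all 12 libraries.

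The respiratory chain sits in the inner mitochondrial membrane. Complex I takes electrons from NADH and complex II takes them from succinate, complex III passes them by way of coenzyme Q to cytochrome c, and complex IV hands them to oxygen, while complexes I, III and IV move protons across the membrane. ATP synthase lets the protons back through its ring of c subunits and uses the flow to turn a central stalk inside its F1 head, where ATP is made. Most subunits are encoded in the nucleus and the rest, except for complex II, in the mitochondrial genome, and lymphocytes that are stimulated to grow and divide are known to build more mitochondria.

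Messenger RNA was measured in peripheral blood mononuclear cells of healthy, specific pathogen-free male beagles that served as blood donors. All cells were separated on a Lymphoprep gradient, grown in a medium based on RPMI1640 with fetal bovine serum, penicillin, streptomycin and 2-mercaptoethanol, and harvested after 24 h. The 4 groups, each of 3 libraries numbered 1 to 3, were untreated cells, cells with 1.0 mM 5-aminolevulinic acid (ALA, a precursor of heme), cells with 0.5 µg/ml concanavalin A (ConA, a lectin that activates T cells), and cells with both. Whether each number stands for an animal of its own is not stated in the labels. The p-values therefore speak only of the spread among the libraries, part of which may be technical.

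The libraries held 13390692 to 21517099 exon reads, of which the 58 genes took 0.392 to 0.870%. Transcripts of the T cell marker CD3E and the B cell marker CD79A were found in all 12 libraries. The libraries also differed by number. The share of exon reads on mitochondrially encoded genes was 3.59 to 4.82% for the 4 number 1 libraries against 11.8 to 23.3% for the other 8. Reads across exon junctions made up 52.4 to 54.2% of exon reads against 36.1 to 43.4%, and intron reads 29.1 to 34.1% of gene reads against 34.5 to 43.3%, with a lower intron share in ConA than in untreated cells in 3 of 3 numbers. Also, 18 of 18 pairs of libraries with the same number deviated together from their group means (r from 0.376 to 0.748). Each result was therefore computed without the number and again with it as a term of the model, the replicate block. Levels are exon counts on TMM-scaled library sizes (normalised CPM), and a gene is said to have risen or fallen where its adjusted p was under 0.05 in edgeR's quasi-likelihood test without the block, with Benjamini-Hochberg adjustment over all 13358 genes tested. Where groups are said to lie apart or not to overlap, this refers to the scaled levels, and unscaled levels can lie closer together or overlap. In numbers 1, 2 and 3 the TMM factors were 1.392, 1.023 and 0.958 untreated and 1.208, 0.734 and 0.870 with ConA. A lower factor raises the scaled level.

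Per unit of transcript length, as TPM from the authors' deposited tables, the 53 tested genes spanned a wide range. In untreated cells ATP5F1E, the epsilon subunit of the F1 head, stood first at 589 ± 148 TPM (SD, n = 3). UQCRB, a small subunit of complex III, followed at 387 ± 122 TPM, COX4I1, a structural subunit of complex IV, at 384 ± 102 TPM, and ATP5F1A, the alpha subunit of the F1 head, at 364 ± 52.0 TPM. The means of UQCRB, COX4I1 and ATP5F1A did not differ beyond their SD. At the low end were NDUFS4 (35.9 ± 7.71 TPM) and NDUFS6 (35.1 ± 5.98 TPM) of complex I, and COX7A1, the muscle form of a complex IV subunit, at 4.47 ± 0.926 TPM. The order depends on the annotated exon length. ATP5F1E and NDUFS6 had nearly equal exon reads over the 12 libraries (11531 and 11849), on 165 and 2383 annotated exon bases. The median level was 120 TPM over 28 genes of complex I, 97.5 TPM over 3 of complex II, 114 TPM over 6 of complex III, 175 TPM over 5 of complex IV (COX7A1 left out) and 200 TPM over 10 of ATP synthase. Forms known from single tissues had few reads. COX6A2, a heart and muscle form, had 15 reads in all, COX4I2, a lung form, had 1 and COX7B2 had 0.

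**Figure D1:**
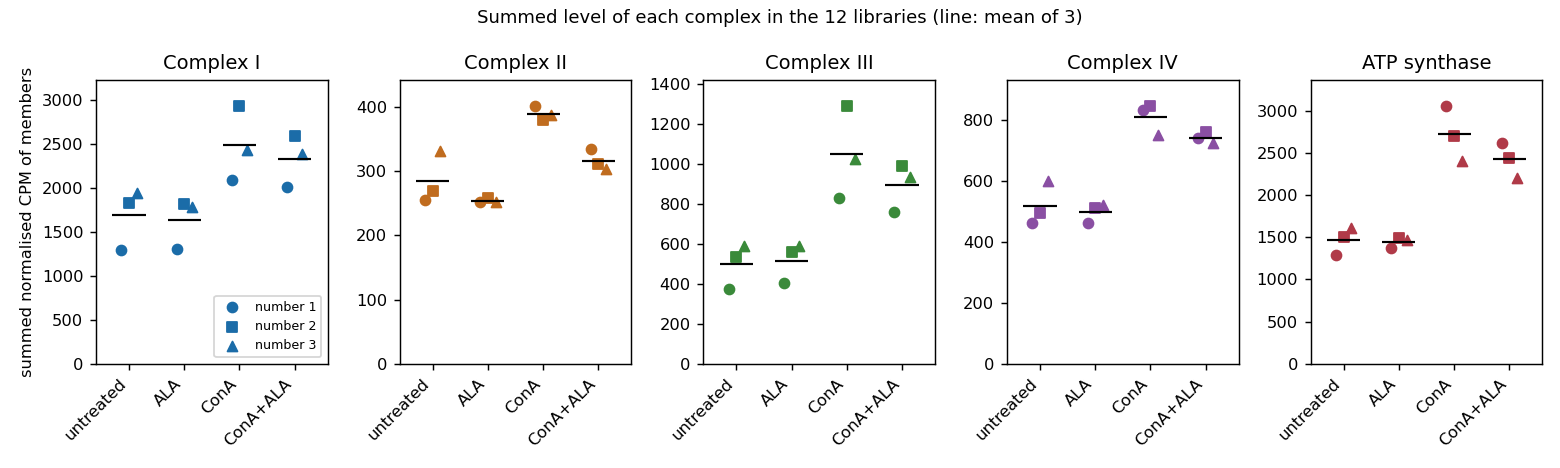
Summed normalised CPM of the genes of each complex (vertical axis, linear and from 0) in the 12 libraries, by treatment (horizontal axis); circles, squares and triangles are numbers 1, 2 and 3, and each line is the mean of 3 libraries. In every complex the 3 libraries with ConA alone lie above the 3 untreated ones, while those with ALA alone lie near the untreated libraries.

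To see how the respiratory chain responded to ConA, cells with ConA were compared with untreated cells. The summed level of the 58 genes was 3669, 4625 and 5070 CPM in untreated libraries 1, 2 and 3 and 7210, 8150 and 6992 CPM with ConA. The groups did not overlap, as the plot of summed levels shows. The ratio of ConA to untreated was 1.96 in number 1, 1.76 in number 2 and 1.38 in number 3. Taken as a share of all exon reads, with no scaling, the ratios were 1.71, 1.26 and 1.25.

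Of the 53 genes tested, 21 rose and 0 fell. Over all genes tested 18.5% passed: 9.93% rose and 8.57% fell. The fold change was above 0 for 49 of the 53, with a median log2 of 0.63 against −0.05 over all genes. In 29 genes the 3 ConA libraries lay above the 3 untreated ones with no overlap, and in 1 gene they lay below; over all genes 17.3% were higher and 18% lower in this way. With the replicate block 41 rose and 1 fell, where 42.5% of all genes passed, 21.3% rising and 21.2% falling. All 21 genes called without the block were called with it. Within number 1 the median log2 ratio of the 53 genes was 0.90, within number 2 it was 0.65 and within number 3 it was 0.48, and over all genes it lay between −0.06 and −0.03. In 43 genes the level was higher with ConA in 3 of 3 numbers, and in 1 it was lower, where this held for 30.6% and 34.3% of all genes.

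How many genes passed without the block rested on single libraries. The count of 21 became 6 without untreated 1, 11 without untreated 2, 10 without ConA 2 and 12 without ConA 3. It became 0 when the 4 libraries of number 2 were left out and 5 without those of number 3, where 2 libraries per group remain. With the block it was 34, 35 and 44 without numbers 1, 2 and 3. ATP5F1A, ATP5F1D, ATP5MC1, COX5A, NDUFB6 and UQCR10 passed in 12 of 12 fits that each left out 1 library, and ATP5PF in 11, all but the one without untreated 1 (edgeR adjusted p = 0.0546).

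Markers of other blood cells moved with ConA too. Of 7 monocyte markers measured, LYZ and FCGR1A fell, 7 of 7 were below 0, and their summed level was 427 to 841 CPM untreated and 114.5 to 373 CPM with ConA. Of 10 T cell markers 1 rose (CD28) and 3 fell (CD5, CD7 and LCK), and their sum was 1157 to 1868 CPM untreated and 779.5 to 1340 CPM with ConA. The B cell sum was 1551 to 2631 CPM untreated and 1421 to 2455 CPM with ConA, with BLK and CD79B of 7 markers fallen. Of 4 neutrophil markers tested 3 fell (CSF3R, S100A8 and S100A12), the sum was 200.2 to 431 CPM untreated and 73.9 to 155 CPM with ConA, and CXCR2 was at 0 in 11 of 12 libraries. Of 5 NK cell markers 2 fell (KLRD1 and NCR3), and of 4 red cell markers and 1 platelet marker 0 passed. With the block 6 of 7 monocyte, 6 of 10 T cell, 5 of 7 B cell, 3 of 5 NK cell and 2 of 4 red cell markers fell. The part of these shifts in the rise of the respiratory chain genes was not tested. In such bulk libraries a change in the number of cells of a type and a change in RNA per cell cannot be told apart.

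**Figure D2:**
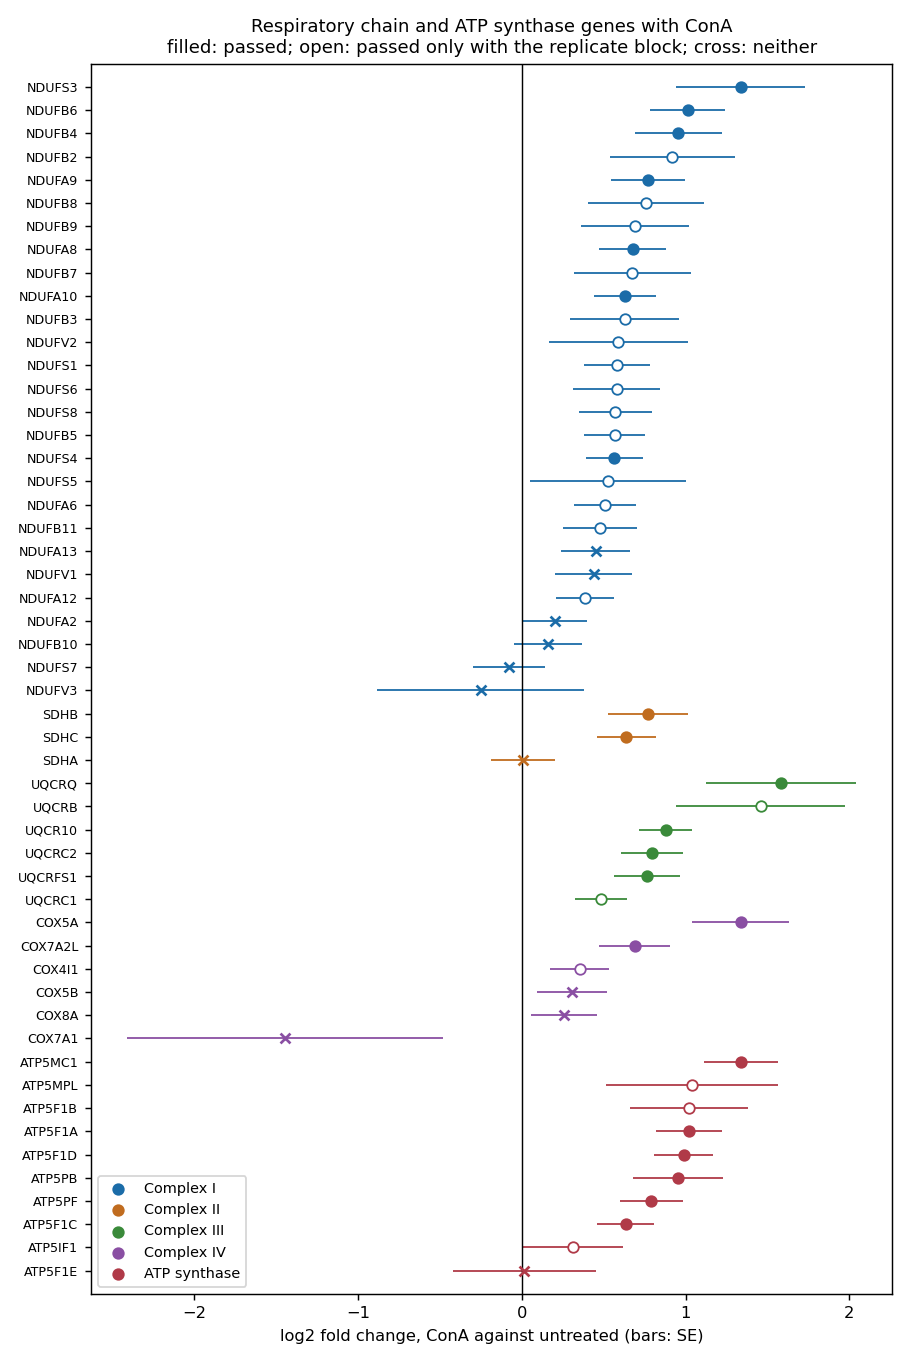
Log2 fold change of 52 tested genes with ConA against untreated cells (horizontal axis, bars are SE, 3 libraries per group), grouped and coloured by complex. Filled points passed without the replicate block (21 genes), open points only with it, and crosses in neither; most points lie right of 0, and the filled and open points shown all do.

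ATP synthase held some of the clearest rises. Of its 10 tested genes 6 rose, with a median log2 of 0.97, and 9 rose with the block. ATP5MC1, which encodes the c subunit of the proton-carrying ring, stood at 41.0, 41.1 and 65.6 CPM in untreated libraries 1, 2 and 3 and at 134, 123 and 117 CPM with ConA. Every ConA library lay well above every untreated one, a 2.53-fold rise (log2 1.34 ± 0.23 SE, n = 3 per group, edgeR adjusted p = 0.00228). It is one of several genes known for the same mature c subunit, and the others were not analysed here. The gene lies on chromosome 9 (25123241 to 25127909, CanFam3.1) and no other annotated gene overlaps it. The alpha subunit ATP5F1A stood at 356, 441 and 455 CPM untreated and at 905, 920 and 719 CPM with ConA. The gene lies on chromosome 7 (45117657 to 45127048). The groups lay far apart, and the rise was 2.03-fold (log2 1.02 ± 0.20, edgeR adjusted p = 0.00487). ATP5F1D, the delta subunit of the central stalk, went from 70.2, 75.7 and 92.0 to 151, 167 and 154 CPM, again with no overlap (0.99 ± 0.18, edgeR adjusted p = 0.00323), in a gene that overlaps SBNO2 on the opposite strand.

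The catalytic beta subunit ATP5F1B showed how much the numbers mattered. It read 426, 281 and 364 CPM untreated and 1132, 486 and 558 CPM with ConA. The groups did not overlap and each number was higher with ConA, but ConA 1 stood well above ConA 2 and ConA 3. The log2 fold change was 1.02 ± 0.36 (edgeR adjusted p = 0.069), and with the block 0.94 ± 0.15 (edgeR adjusted p = 0.000154). The gamma subunit ATP5F1C (0.63 ± 0.17), the peripheral stalk subunit ATP5PB (0.95 ± 0.27) and coupling factor 6, ATP5PF (0.79 ± 0.19), rose with no overlap between the groups (edgeR adjusted p = 0.0256, 0.0312 and 0.0142). As TPM, with no TMM scaling, ATP5F1C was at 206 ± 34.7 untreated and 255 ± 123 with ConA (SD), which did not differ beyond the SD. ATP5F1C did not pass without any 1 of untreated 1, 2 or 3 or ConA 1 or 3 (edgeR adjusted p up to 0.09), nor ATP5PB without any 1 of untreated 1 or 2 or ConA 2 or 3 (up to 0.11).

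One subunit of the F1 head stood apart from its partners. ATP5F1E read 31.9, 80.6 and 65.5 CPM untreated and 31.1, 86.7 and 62.4 CPM with ConA. The values followed the library number and not the treatment, and the log2 fold change was 0.02 ± 0.43 without the block (edgeR adjusted p = 0.986) and 0.00 ± 0.14 with it. Alpha, beta, gamma and delta, by contrast, had fold changes between 0.63 and 1.02. The inhibitor ATP5IF1, which blocks ATP hydrolysis by the enzyme, read 103, 205 and 178 CPM untreated and 152, 245 and 208 CPM with ConA, overlapping groups with each number higher (0.31 ± 0.31, edgeR adjusted p = 0.526, and 0.0363 with the block). The small membrane subunit ATP5MPL, annotated with 225 exon bases, passed with the block only (1.04 ± 0.52, edgeR adjusted p = 0.194 without and 0.000387 with it).

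In complex III 4 of 6 genes rose and the median log2 was 0.84. With the block 6 of 6 rose. UQCR10, a small subunit of the complex on chromosome 26 (22953331 to 22955569), read 25.3, 31.5 and 30.4 CPM untreated and 54.6, 52.6 and 52.9 CPM with ConA. On this TMM scale libraries of a group were close to each other, and no untreated library came near a ConA one (log2 0.88 ± 0.16, edgeR adjusted p = 0.0035). As TPM, with no TMM scaling, the level was 84.1 ± 13.9 untreated and 120 ± 45.5 with ConA (SD). Those means did not differ beyond their SD. UQCRQ, another small subunit, had the highest fold change of all 53 genes, from 37.5, 75.7 and 92.5 to 104, 298 and 215 CPM. The lowest ConA library lay just above the highest untreated one (1.58 ± 0.46, edgeR adjusted p = 0.0318). The gene overlaps GDF9 on the opposite strand. It did not pass without any 1 of untreated 1 or 2 or ConA 2 or 3 (edgeR adjusted p up to 0.116).

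UQCRB, a small subunit that binds near coenzyme Q, had groups that overlapped. It read 57.1, 160 and 179 CPM untreated and 175, 526 and 385 CPM with ConA, so that ConA 1 fell just below untreated 3. Within numbers 1, 2 and 3 the log2 ratio was 1.61, 1.72 and 1.11, and the log2 fold change was 1.46 ± 0.51 (edgeR adjusted p = 0.069, and 2.35e-06 with the block). It was also called by DESeq2 (adjusted p = 0.0218), on total gene reads and by edgeR without ConA 1. The core protein UQCRC2 (0.79 ± 0.19, edgeR adjusted p = 0.0136) and the Rieske iron-sulfur protein UQCRFS1 (0.77 ± 0.20, edgeR adjusted p = 0.0214) rose with no overlap on the TMM scale. As TPM, with no TMM scaling, UQCRC2 was at 96.9 ± 21.5 untreated and 134 ± 72.8 with ConA (SD). UQCRFS1 was at 132 ± 20.1 and 181 ± 89.5 TPM. Neither differed beyond its SD there. UQCRC2 did not pass without untreated 1 or ConA 1, nor UQCRFS1 without untreated 1 or 2 or ConA 1 (edgeR adjusted p up to 0.0511 and 0.0811). The other core protein, UQCRC1, read 114, 111 and 112 CPM untreated and 175, 156 and 141 CPM with ConA (0.49 ± 0.16, edgeR adjusted p = 0.0532, and 0.00366 with the block).

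**Figure D3:**
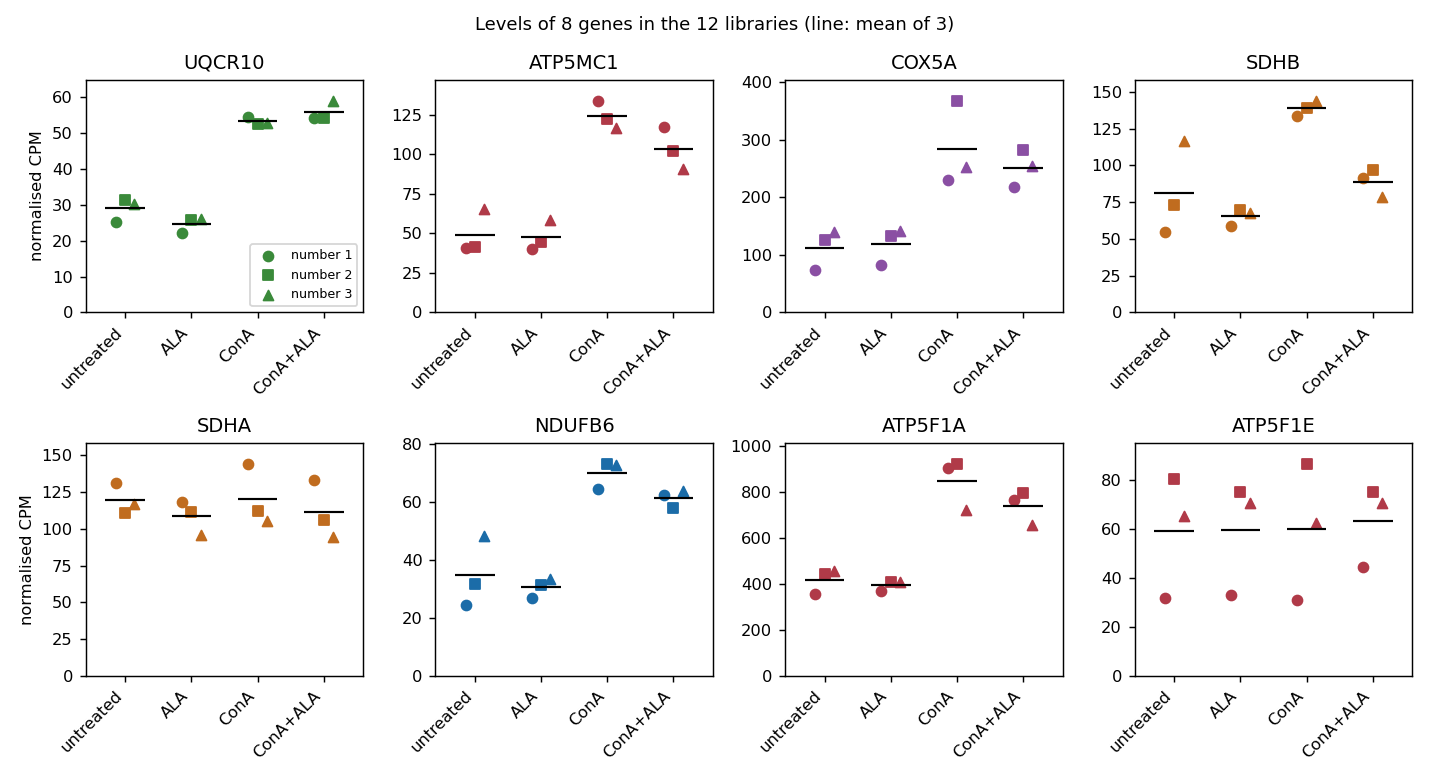
Normalised CPM (vertical axes, linear and from 0) of 8 genes in the 12 libraries by treatment; circles, squares and triangles are numbers 1, 2 and 3, and lines are means of 3 libraries. UQCR10, ATP5MC1, COX5A, SDHB, NDUFB6 and ATP5F1A are higher with ConA, SDHA and ATP5F1E are not, and the mean of SDHB with ConA and ALA lies between those of untreated and ConA cells.

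Complex II is small enough to give in full, apart from SDHD. SDHA, the flavoprotein that oxidises succinate, read 131, 111 and 117 CPM untreated and 144, 112 and 105 CPM with ConA. The groups overlapped throughout and the gene passed in neither fit (log2 0.01 ± 0.20, edgeR adjusted p = 0.98, and 0.996 with the block). Its sign changed between settings. The other tested subunits rose. SDHC, a membrane anchor that holds heme, went from 68.8, 84.8 and 97.7 to 125, 129 and 138 CPM (0.64 ± 0.18, edgeR adjusted p = 0.0281). The iron-sulfur subunit SDHB, on chromosome 2 (81158291 to 81190109), went from 54.6, 73.1 and 117 to 134, 139 and 144 CPM. The 3 ConA libraries were close to each other, and the untreated ones spread over a range in which untreated 3 came nearest to them (0.77 ± 0.24, edgeR adjusted p = 0.046). SDHC did not pass without any 1 of untreated 1 or 2 or ConA 2 or 3 (edgeR adjusted p up to 0.0965), and SDHB passed in 1 of 12 fits that left out a library, the one without untreated 3. Only 75.2% of SDHB exon reads were unique to it, and on unique reads alone its fold change was 0.82 (edgeR adjusted p = 0.0375). As TPM, with no TMM scaling, SDHB was at 137 ± 27.7 untreated and 187 ± 60.3 with ConA (SD). SDHC was at 70.6 ± 8.13 and 85.5 ± 27.6 TPM. Neither differed beyond its SD on that scale.

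In complex IV 2 of 6 tested genes rose and the median log2 was 0.33, the lowest of the 5 complexes. With the block 3 rose. COX5A, a structural subunit on the matrix side, read 72.8, 125 and 139 CPM untreated and 230, 367 and 253 CPM with ConA. Every ConA library was higher than every untreated one (1.34 ± 0.30, edgeR adjusted p = 0.00953). The annotated gene spans chromosome 30 from 37905827 to 37968111 and overlaps SCAMP2, MPI and FAM219B, whose reads could be shared with it. COX7A2L, a factor that joins complexes III and IV into supercomplexes, rose from 44.3, 70.2 and 68.9 to 85.5, 111 and 99.2 CPM (0.69 ± 0.22, edgeR adjusted p = 0.0452), but passed in 2 of 12 fits that left out a library.

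The other complex IV genes did not pass without the block. COX4I1 read 152, 142 and 177 CPM untreated and 235, 179 and 187 CPM with ConA, groups that just did not overlap on this scale (0.35 ± 0.18, edgeR adjusted p = 0.2, and 0.0435 with the block). As TPM, with no TMM scaling, COX4I1 was at 384 ± 102 untreated and 388 ± 199 with ConA (SD), which did not differ beyond the SD. COX5B, a zinc-binding subunit, had a log2 fold change of 0.31 ± 0.21 (edgeR adjusted p = 0.353) and COX8A, the common form of the smallest subunit, 0.26 ± 0.20 (edgeR adjusted p = 0.42). Both passed in neither fit, and 63.0% of COX8A exon reads were unique to it. COX7A1 had 12 to 22 reads per untreated library and 20, 0 and 2 with ConA (−1.44 ± 0.96, edgeR adjusted p = 0.336), a depth at which no difference was detectable.

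In complex I 7 of 28 tested genes rose, with a median log2 of 0.58, and 25 were above 0. With the block 21 rose. The supernumerary subunits, which surround the catalytic core, gave 6 of the 7 rises among 21 tested. NDUFB6, of the membrane arm, read 24.3, 31.6 and 48.4 CPM untreated and 64.5, 73.0 and 72.9 CPM with ConA. The groups were well apart (1.01 ± 0.23, edgeR adjusted p = 0.0108); the row is annotated with a single exon of 387 bases. NDUFB4, of the same arm, went from 25.3, 46.9 and 43.4 to 68.7, 92.4 and 63.1 CPM (0.96 ± 0.27, edgeR adjusted p = 0.0274), and did not pass without untreated 1 or ConA 2 (up to 0.0993). NDUFA9, at the joint of the arms, NDUFA10, NDUFA8 and NDUFS4 rose with fold changes of 0.77 ± 0.22, 0.63 ± 0.19, 0.68 ± 0.21 and 0.56 ± 0.17 (edgeR adjusted p from 0.0329 to 0.0417). They passed in 8, 4, 4 and 2 of 12 fits that left out 1 library.

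Among the core subunits, some of which carry the flavin or iron-sulfur clusters, NDUFS3 rose from 40.2, 64.1 and 66.6 to 85.7, 225 and 121 CPM, with no overlap and ConA 2 the highest (1.34 ± 0.39, edgeR adjusted p = 0.0343). Without ConA 2 its log2 fold change was 0.86 (edgeR adjusted p = 0.145), and it also did not pass without untreated 1, 2 or 3 or ConA 3. NDUFS1 (0.58 ± 0.20), NDUFS8 (0.57 ± 0.22), NDUFV2 (0.59 ± 0.42) and NDUFV1 (0.44 ± 0.24) were above 0 but did not pass (edgeR adjusted p = 0.0652 to 0.375), and the first 3 passed with the block. NDUFS7, which carries the last iron-sulfur cluster before coenzyme Q, had a fold change of −0.08 ± 0.22 (edgeR adjusted p = 0.853). It is named here after its values were seen.

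**Figure D4:**
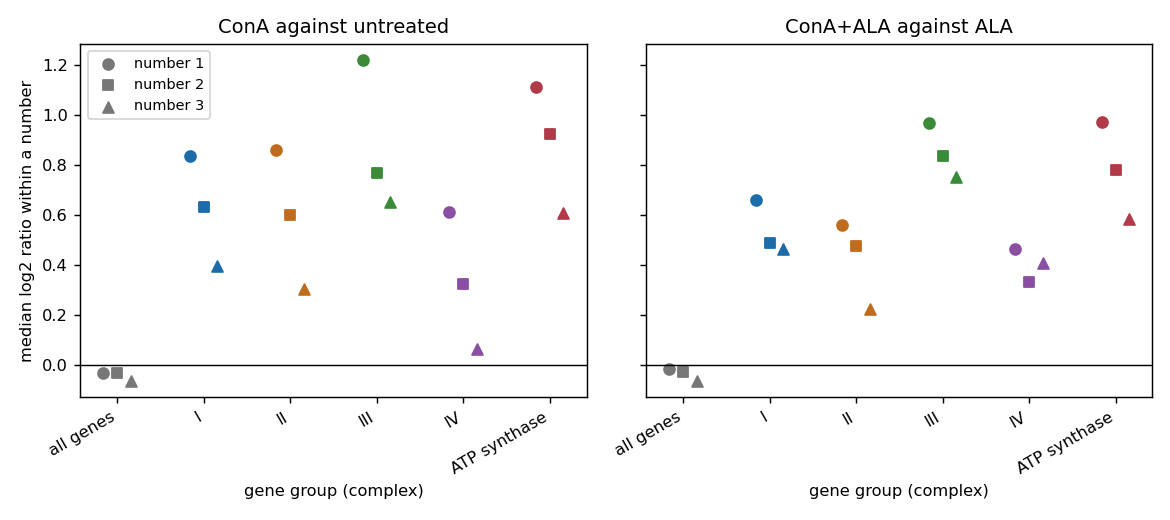
Median log2 ratio within each number (vertical axis) over all genes tested and over the tested genes of each complex (horizontal axis), for ConA against untreated (left) and ConA with ALA against ALA (right); circles, squares and triangles are numbers 1, 2 and 3. All medians of the complexes lie above 0 and above those of all genes, and on the left each complex has its highest median in number 1 and its lowest in number 3.

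With ConA against untreated, the median log2 ratio of TMM-scaled levels was highest in number 1 and lowest in number 3 in each complex, as the plot of medians within numbers shows. Complex III had medians of 1.22, 0.77 and 0.65 in numbers 1, 2 and 3, ATP synthase 1.11, 0.92 and 0.61, and complex IV 0.61, 0.32 and 0.06. The order did not hold on every other scale. As summed CPM, complex III had ratios of 2.23, 2.41 and 1.75, highest in number 2. As shares of exon reads with no scaling, complex II had ratios of 1.37, 1.015 and 1.06 and ATP synthase 2.05, 1.29 and 1.36, lowest in number 2. On the unscaled shares complexes II and IV also overlapped between the groups: complex II took 0.0275 to 0.0355% of exon reads untreated and 0.0279 to 0.0486% with ConA, and complex IV 0.0506 to 0.0646% and 0.0623 to 0.101%. With 1 library per number and treatment, the differences between numbers have no replicate check.

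Part of the spread between libraries went with the number alone. In 7 genes, ATP5IF1, ATP5MPL, ATP5F1E, NDUFV2, NDUFS5, NDUFB7 and NDUFB3, all 4 libraries of number 1 lay below the other 8, where this held for 8.71% of all genes tested. ATP5F1E, for example, had 31.1 to 44.7 CPM in number 1 and 62.4 to 86.7 CPM elsewhere. In SDHA all 4 libraries of number 1 lay above the other 8, at 118.6 to 144 against 94.3 to 117 CPM (6.15% of all genes). NDUFV3, a complex I subunit, was the only one of the 53 genes with all 4 libraries of number 3 below the rest, at 13.7 to 22.8 CPM against 31.3 to 66.1 CPM (0.749% of all genes). In that row 77.2% of gene reads were intronic. Shorter genes were more often lower in number 1 than in numbers 2 and 3. In every treatment this held for 16 of 32 genes under 1000 exon bases and for 5 of 20 longer genes. The reverse held for 0 of the shorter and 4 of the longer genes. The same counts were not made over all genes, so whether this is particular to these genes was not tested. Across 52 genes the rank correlation of exon length with the ratio of number 1 to numbers 2 and 3 was 0.511, and with the ConA fold change it was −0.00517. These are descriptions over genes that share libraries, and genes are not replicates. COX7A1, with reads near 0, was left out of them.

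Genes that serve the chain without being nuclear NDUF, SDH, UQCR, COX or ATP5 subunits were counted from fixed lists. Of 41 tested assembly factors, the proteins that build the complexes but are not part of them, 11 rose and 0 fell, with a median log2 of 0.69, and 26 rose with the block. NDUFAF2 (2.27 ± 0.34, edgeR adjusted p = 0.00117) and NDUFAF4 (2.04 ± 0.26, edgeR adjusted p = 0.00057), both for complex I, rose more than any subunit gene. ECSIT, for complex I, and COX16, for complex IV, rose by 1.36 ± 0.20 and 1.55 ± 0.32 (edgeR adjusted p = 0.000989 and 0.00611). Of 17 rows for cytochrome c, cytochrome c1 and coenzyme Q synthesis, 5 rose and 1 fell, with a median of 0.27, and 8 rose and 1 fell with the block. The mobile carrier CYCS rose by 2.01 ± 0.37 (edgeR adjusted p = 0.00368), and CYC1, the cytochrome subunit of complex III, by 0.91 ± 0.25 (edgeR adjusted p = 0.0238). COQ8A, a kinase-like protein of coenzyme Q synthesis, fell by 1.72 ± 0.19 on the log2 scale (edgeR adjusted p = 0.000313).

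Of 11 citric acid cycle genes tested 3 rose (IDH3A, SUCLG1 and DLD) and 0 fell, with a median of 0.50, and 6 rose with the block. Of 14 regulators of mitochondrial biogenesis 2 rose without the block and 2 with it, beside 9.93% and 21.3% of all genes: TFB2M, a factor for mitochondrial transcription (1.45 ± 0.18, edgeR adjusted p = 0.000523), and PPRC1, a coactivator (0.87 ± 0.18, edgeR adjusted p = 0.00613). The 13 mitochondrially encoded protein genes, which supply the remaining subunits, were 13 of 13 above 0 with a median of 1.05, but 0 passed without the block and 13 rose with it (median 0.86). Their summed level ran from 28020 to 132600 CPM in untreated libraries, lowest in number 1, and from 36210 to 306900 CPM with ConA, so the groups overlapped.

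The comparison was then repeated in the presence of ALA, with other libraries of the same 3 numbers. Cells with ConA and ALA were compared with cells with ALA alone. The summed level of the 58 genes was 3789, 4631 and 4608 CPM with ALA and 6463, 7092 and 6550 CPM with both, again with no overlap. Of the 53 genes tested 8 rose and 0 fell, where 8.12% of all genes passed, 5.09% rising and 3.03% falling. The median log2 was 0.51 (all genes −0.07), 50 genes were above 0, and in 35 the groups did not overlap in the upward direction (14.9% of all genes) and in 0 in the downward (13.3%). With the block 37 rose and 0 fell, where 30.1% of all genes passed, 15.8% rising and 14.3% falling. In 48 genes the level was higher with ConA in 3 of 3 numbers and in 1 it was lower, against 28.2% and 32.2% of all genes.

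The 8 genes were UQCR10 (1.18 ± 0.16, edgeR adjusted p = 0.00227), ATP5F1D (1.06 ± 0.18, 0.00558), ATP5MC1 (1.12 ± 0.23, 0.0117), ATP5F1A (0.91 ± 0.20, 0.018), NDUFB6 (1.00 ± 0.23, 0.022), ATP5F1C (0.72 ± 0.17, 0.0266), UQCRFS1 (0.77 ± 0.20, 0.0385) and COX5A (1.08 ± 0.30, 0.0434). All 8 are among the 21 that rose without ALA. UQCR10 read 22.2, 25.7 and 26.01 CPM with ALA and 54.2, 54.4 and 59.0 CPM with both. ATP5F1D read 62.3, 81.9 and 74.9 CPM with ALA and 165, 140 and 151 CPM with both. These 2 genes, whose groups lay far apart, were called in 12 of 12 fits that left out 1 library. The count of 8 became 2 without ALA 1 or ALA 2, 3 without ConA+ALA 1 or ConA+ALA 2, and 4 without ConA+ALA 3. Cell type markers differed here too. Of 10 T cell markers 2 fell and of 4 neutrophil markers 1 fell. The sums did not all go down. In numbers 1, 2 and 3 the neutrophil sum with both was 2.148, 3.325 and 1.028 times that with ALA. The B cell sum was 1.3, 1.054 and 1.16 times, and the T cell sum 0.9295, 0.7595 and 0.8219 times. The B cell sum was mostly CD79A, and the neutrophil sum with both was mostly MMP9. Most single markers went the other way. Of 7 B cell markers 1 was above 0 (median log2 −0.39), and of 4 neutrophil markers 1 was (median −0.66). Of 7 monocyte markers 7 were below 0 (median −1.67), of which 0 passed without the block and 5 fell with it, and their sum was 312 to 1478 CPM with ALA and 129 to 385 CPM with both. Their part in the result was not tested.

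**Figure D5:**
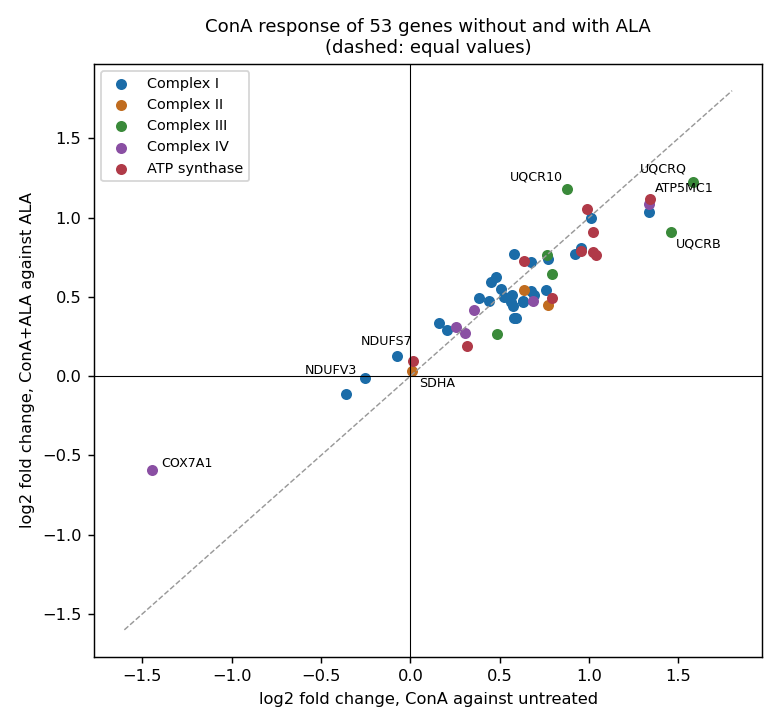
Log2 fold change of 53 genes for ConA against untreated (horizontal axis) and for ConA with ALA against ALA (vertical axis), coloured by complex, 3 libraries per group; the dashed line marks equal values. Most points run along the line, with UQCR10 and the outlying COX7A1, which had few reads, above it and UQCRB and UQCRQ below it.

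The fold changes of the 53 genes in these 2 comparisons, which share no library but share the 3 numbers and 1 estimate of the spread, had a Pearson correlation of 0.925 and a Spearman correlation of 0.876, and 52 of 53 had the same sign. Over all 13358 genes tested the values were 0.76 and 0.79, with 82.9% of the same sign. These are descriptions across genes. COX7A1, with reads near 0, is among the 53 as an outlying point (log2 −1.44 and −0.59). SDHA (0.03 ± 0.20, edgeR adjusted p = 0.951) and ATP5F1E (0.09 ± 0.43, edgeR adjusted p = 0.94) were near 0 here too.

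To see whether ALA acted on these genes in cells without ConA, cells with ALA were compared with untreated cells. None of the 53 passed with edgeR (0 with the block and 0 at an unadjusted p under 0.05), where 0% of all genes passed without the block and 0.0449% with it. The median log2 was −0.03, and 19 genes were above 0. In 3 of 3 numbers 10 genes were higher and 7 lower with ALA, against 14.8% and 15.9% of all genes. Apart from COX7A1, fold changes lay between −0.32 for SDHB and 0.25 for NDUFB4, with a median SE of 0.22. The groups did not overlap in 1 gene that was higher with ALA, UQCRC1, and in 1 that was lower, where 1.91% of all genes were higher and 2.36% lower in this way. UQCR10 (−0.24 ± 0.16) and SDHB (−0.32 ± 0.24) were among the 3 genes with the smallest unadjusted p (edgeR adjusted p = 1). Without untreated 3 the SDHB value was 0.03.

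In cells with ConA the addition of ALA was tested by comparing ConA with ALA against ConA alone. None of the 53 genes passed with edgeR, where 0% of all genes passed without the block and 0.554% with it (0.337% higher and 0.217% lower), and 1 gene had an unadjusted p under 0.05. That gene was SDHB, with 134, 139 and 144 CPM with ConA and 91.3, 97.2 and 78.7 CPM with both. All 3 libraries with ALA lay below all 3 without it, and each number was lower, by 0.55, 0.52 and 0.87 on the log2 scale (−0.64 ± 0.24, edgeR adjusted p = 1, and 0.209 with the block). SDHA (−0.12 ± 0.20) and SDHC (−0.17 ± 0.18) did not pass. The median over the 53 genes was −0.12, 11 were above 0, and 17 were lower in 3 of 3 numbers and 2 higher, where 18.1% of all genes were lower and 16.2% higher. The groups did not overlap in 2 of 53 genes, SDHB and NDUFB6, both lower with ALA (3.69% of all genes were lower and 4.05% higher). ATP5MC1 (−0.27 ± 0.22) and NDUFS8 (−0.27 ± 0.22) came next by unadjusted p. The summed neutrophil markers were higher with ALA in this comparison, 73.9 to 155 CPM with ConA and 656 to 2406 CPM with both, most of it MMP9. The NK cell sum (30.8 to 76.0 CPM with ConA and 59.4 to 111 CPM with both) and the red cell sum (20.2 to 94.9 and 40.65 to 162 CPM) were also higher with ALA in 3 of 3 numbers. So were the other marker sums. In numbers 1, 2 and 3 the ratios were 1.001, 1.142 and 1.064 for T cell and 1.269, 1.084 and 1.163 for B cell markers. They were 1.034, 1.123 and 1.34 for monocyte markers and 1.749, 1.002 and 1.293 for the platelet marker. The part of all these markers in the values was not tested.

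Whether ALA changed the ConA response was tested by the interaction term of the same model. Of the 53 genes 0 passed with edgeR, 0 with the block and 0 at an unadjusted p under 0.05, where 0% of all genes passed in either fit. UQCR10 (0.30 ± 0.23) and ATP5PF (−0.30 ± 0.27) had the smallest unadjusted p. Apart from COX7A1 the values lay between −0.55 for UQCRB and 0.30 for UQCR10, and the median SE was 0.31 without the block and 0.20 with it. A p above the threshold does not show that ALA left the ConA response as it was.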

How the data were processed

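RNA was sequenced as poly(A)-selected libraries, per the labels' protocols. For each library the authors deposited read counts per Ensembl gene (total exon, unique exon, gene, intron and exon-exon reads), per the file headers. The authors also deposited TPM values, made from exon reads and exon length, per the file headers. The genome build was CanFam3.1, per the submitters' processing notes. The sources used here do not give the aligner, the counting tool or the use of strand.

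Total exon counts of all genes in 12 libraries (13390692 to 21517099 reads each) were fitted in 1 model with 4 group means in edgeR 4.0.16 (R 4.3.3; TMM, filterByExpr, robust quasi-likelihood F-test), and p-values were adjusted by Benjamini-Hochberg over the 13358 genes tested, with a threshold of 0.05. SEs are the log2 fold change divided by the square root of F. TPM served for levels between genes and, for UQCR10, UQCRC2, UQCRFS1, SDHB, SDHC, COX4I1 and ATP5F1C, for levels without TMM scaling. The code was tested on simulated data.

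Replicate numbers come from the labels. The correlation of deviations from group means was above 0.1 in 18 of 18 same-numbered pairs (0.376 to 0.748) and lay between −0.498 and 0.206 in the 36 others, so the numbers were taken to pair the libraries, and the block is printed where it changes a call or a count.

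Alternatives were RLE size factors, a fit of unfiltered genes, a minimum mean of 50 counts, DESeq2 1.42.0, limma-voom (limma 3.58.1), unique exon reads, total gene reads, mitochondrially encoded genes left out, only the groups compared, the block and leaving out libraries. Blocked fits with a number left out, with unique reads or without mitochondrially encoded genes were added after the data were seen.

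Genes named by rule are the 4 of each complex with the smallest unadjusted p with ConA, the SDH genes, isoform families and ATP5IF1, genes with under 80% unique exon reads, and in the other comparisons the genes called or the 3 with the smallest p. Any other gene was named after its values were seen. The members and lists were chosen with earlier results of these data known. One gene is counted among those tested but not reported here by name or value.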

Additional observations from a re-analysis of the deposited data

Results flagged for a closer look

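In 3 genes ALA moved the level upward in 3 of 3 numbers without ConA and downward in 3 of 3 numbers with ConA, a pattern found in 2.6% of all 13358 genes tested. The rule that flagged them also took the reverse pattern, found in 2.5% of all genes and in none of those described here. In the 3 genes the difference between the ALA effects did not pass by the interaction term (edgeR adjusted p = 1). For UQCRC1 the log2 effect of ALA was 0.06 without ConA and −0.16 with it, an interaction of −0.22 ± 0.23 (SE). For UQCRB it was 0.15 and −0.40, an interaction of −0.55 ± 0.71. For ATP5PF it was 0.18 and −0.12, an interaction of −0.30 ± 0.27.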

How the results depend on the processing

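The count of 21 genes called with ConA was 42 with the replicate block, 43 with the block on unique reads, 42 with the block and no mitochondrially encoded genes, 34, 35 and 44 with the block and without numbers 1, 2 and 3, and 6 when only the groups compared were fitted. It ranged from 0 to 21 when a library or a number was left out. The count of 8 for ConA with ALA against ALA was 37 with the block, 37 with the block on unique reads, 5 with only the groups compared, and 0 to 12 with libraries left out. By complex with ConA, complex I had 7 called, 4 without a filter, 22 with the block, 0 with only the groups compared and 0 to 8 with libraries left out. Complex II had 2 called, 0 without a filter, 1 on total gene reads, 0 with only the groups compared and 0 to 2 with libraries left out. Complex III had 4 called, 1 with only the groups compared and 0 to 4 with libraries left out. Complex IV had 2 called, 1 without a filter, 1 at a mean of at least 50 counts, 1 with only the groups compared and 0 to 2 with libraries left out. ATP synthase had 6 called and 0 to 7 with libraries left out. SDHA with ConA changed sign at values near 0: −0.029 at a mean of at least 50 counts, −0.0021 in limma-voom, −0.00097 with the block, −0.053 without number 1, and between −0.14 (without ConA 1) and 0.10 (without ConA 3) with libraries left out. SDHB with ALA against untreated became 0.031 without untreated 3 and 0.0091 without number 3, and was −0.54 without untreated 1. The causes of these changes were not tested. Fits that leave out libraries, or use only the groups compared, rest on fewer libraries. Of the values of single genes under the alternatives, 809 kept direction and side of the threshold, 151 kept direction but no longer passed, 2 came to pass and 9 changed sign. The block ended no call in the 5 comparisons. With 3 libraries per group, and with COX7A1 and 5 untested genes at few reads, small differences were not detectable.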

Other observations

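Some of the 58 genes, which lie on 30 chromosomes with at most 5 on any one, are neighbours under 100000 bases apart in CanFam3.1. NDUFS8 and NDUFV1 on chromosome 18, 82927 bases apart, had log2 fold changes with ConA of 0.57 and 0.44. NDUFS7 and ATP5F1D on chromosome 20, 98545 bases apart, had −0.08 and 0.99. These pairs were looked up after the fold changes were seen, and no test was made on them.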
